A study of Mus musculus with 10 samples.

Results

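The genes of polyamine synthesis and breakdown are the 10 rows of the count and TPM tables with the symbols Odc1, Amd1, Srm, Sms, Sat1, Smox, Paox, Oaz1, Oaz2 and Azin1. All 10 were among the 18025 genes listed and among the 12697 that passed the filter on low counts. They were chosen by their place in the pathway and with their CPM in each library and their COPD to control ratios in view. Their fold changes are therefore a description, printed without p-values, and nothing is supported by them. Where a count of genes past a p-value threshold names some of them, it is a description too. The material was gastrocnemius, the large fast-twitch calf muscle. Both groups were wild-type mice of the strain C57BL/6 with a stated age of 8 weeks. 5 libraries were labelled control and 5 were labelled COPD, the series title naming cigarette smoke as the way the lung disease was modelled. The labels give no sex, smoke dose or length of exposure, and they do not say whether each library came from its own animal. Any p-value here then measures the spread between these libraries, which may in part be technical.

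Polyamines are small positively charged molecules (putrescine, spermidine and spermine) that bind RNA, DNA and ion channels and are needed for cell growth. Ornithine decarboxylase (Odc1) makes putrescine, and S-adenosylmethionine decarboxylase (Amd1) makes the aminopropyl donor that spermidine synthase (Srm) and spermine synthase (Sms) add in turn. Breakdown runs through acetylation by Sat1 and oxidation by Paox, or directly from spermine through spermine oxidase (Smox), which releases hydrogen peroxide. Antizymes (Oaz1, Oaz2) bind ornithine decarboxylase and send it to the proteasome, and the antizyme inhibitor Azin1 binds antizyme in its place. In skeletal muscle the pathway is known for its link to fibre size and for transcripts that respond to androgens.

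The upstream sequences of Odc1, Amd1 and Smox are shown because these 3 genes had the same libraries at their highest levels. Each is the stretch of 250 bases that ends just before the transcription start in RefSeq (build GRCm38.p6), written 5′ to 3′ on the strand of the gene, with GC boxes (GGGCGG on either strand, overlapping matches included) in capitals. Odc1 is at chr12:17544623-17544872 on the plus strand, Amd1 at chr10:40302189-40302438 on the minus strand and Smox at chr2:131491612-131491861 on the plus strand.
Odc1: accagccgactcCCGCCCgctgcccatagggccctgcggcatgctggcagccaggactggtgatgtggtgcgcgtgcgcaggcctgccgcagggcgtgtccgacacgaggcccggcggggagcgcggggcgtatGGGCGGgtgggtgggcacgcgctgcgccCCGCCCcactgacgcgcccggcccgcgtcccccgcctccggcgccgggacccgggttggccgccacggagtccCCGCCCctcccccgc
Amd1: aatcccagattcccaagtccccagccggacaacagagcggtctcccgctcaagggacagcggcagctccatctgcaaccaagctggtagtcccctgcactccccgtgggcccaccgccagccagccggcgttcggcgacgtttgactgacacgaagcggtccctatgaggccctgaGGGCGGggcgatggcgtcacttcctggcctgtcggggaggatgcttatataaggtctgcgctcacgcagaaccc
Smox: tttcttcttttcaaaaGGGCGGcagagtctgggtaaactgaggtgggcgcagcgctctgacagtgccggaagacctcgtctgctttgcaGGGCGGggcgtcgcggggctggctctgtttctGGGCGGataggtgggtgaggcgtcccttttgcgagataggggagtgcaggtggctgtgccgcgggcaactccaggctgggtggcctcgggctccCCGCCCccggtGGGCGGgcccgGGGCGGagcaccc
These stretches hold 4, 1 and 6 GC boxes, a motif with at least 1 match in 32.7% of the 32851 RefSeq promoter entries over the same length. The E-box CACGTG (6.02% of entries), the cyclic AMP response element TGACGTCA (1.55%) and the palindromic androgen and glucocorticoid response element (0.00913%) had 0 matches in the 3 windows, which says only that those letters are not there. RefSeq entries were found for 8 of the 10 genes. An E-box was found in 1 of them, Sms, in 1 of its 2 entries. Sms and Sat1 lie on the X chromosome.

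Transcripts for both regulated steps of synthesis were over 2 times as abundant in COPD replicates 2 and 3 as in any other library. Values are CPM (read counts brought to a common library size with TMM factors), given for replicates 1 to 5 of each group in order. Odc1 was at 89.3, 75.4, 59.4, 65.9 and 126 CPM in control and at 56.5, 323, 309.9, 60.1 and 54.4 CPM in COPD. The other 3 COPD libraries lay at or under the low end of the controls, so that the COPD group held both the 2 highest and the 2 lowest of the 10 values. The group means of 83.1 ± 26.3 and 161 ± 142 CPM (SD, n = 5 each; log2 fold change 0.95 ± 0.52, SE) describe none of the COPD libraries. Amd1 was at 228, 211, 342, 96.5 and 260 CPM in control and at 127, 1747, 1391, 161 and 97.7 CPM in COPD. It thus had the widest range of the 10 genes, and control replicate 4 and COPD replicate 5 shared its low end. Its means were 227 ± 88.7 and 705 ± 799 CPM (SD, n = 5 each; log2 fold change 1.63 ± 0.76, SE). A near-identical copy, Amd2, shares 99.6% of the 3204 aligned transcript bases with Amd1 in GENCODE M21. Reads of the copies may not have been told apart, and Amd2 was listed at 0 to 1.19% of the Amd1 TPM in each library.

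The 2 synthases downstream differed from each other. Sms was at 117, 101, 87.5, 72.9 and 109 CPM in control and at 82.0, 160.1, 146, 83.9 and 77.3 CPM in COPD. COPD replicates 2 and 3 were again the highest, by a smaller margin than for Odc1 and Amd1, and the other 3 COPD libraries lay inside the control range. Its log2 fold change of 0.17 ± 0.22 (SE) turned to -0.07 with limma on log2(TPM + 1). Srm ranged from 10.8 to 15.3 CPM over the controls and from 10.5 to 14.4 CPM over the COPD libraries (log2 fold change -0.17 ± 0.13, SE), on 147 to 276 counts a library. Its groups overlapped almost fully, and COPD replicates 2 and 3, at 12.6 and 10.8 CPM, did not stand apart. The ratio of Sms to Srm in TPM lay between 1.74 and 2.92 in control and was 4.64 and 5.04 in COPD replicates 2 and 3, against 2.12, 2.92 and 2.33 in COPD replicates 1, 4 and 5.

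**Figure D1:**
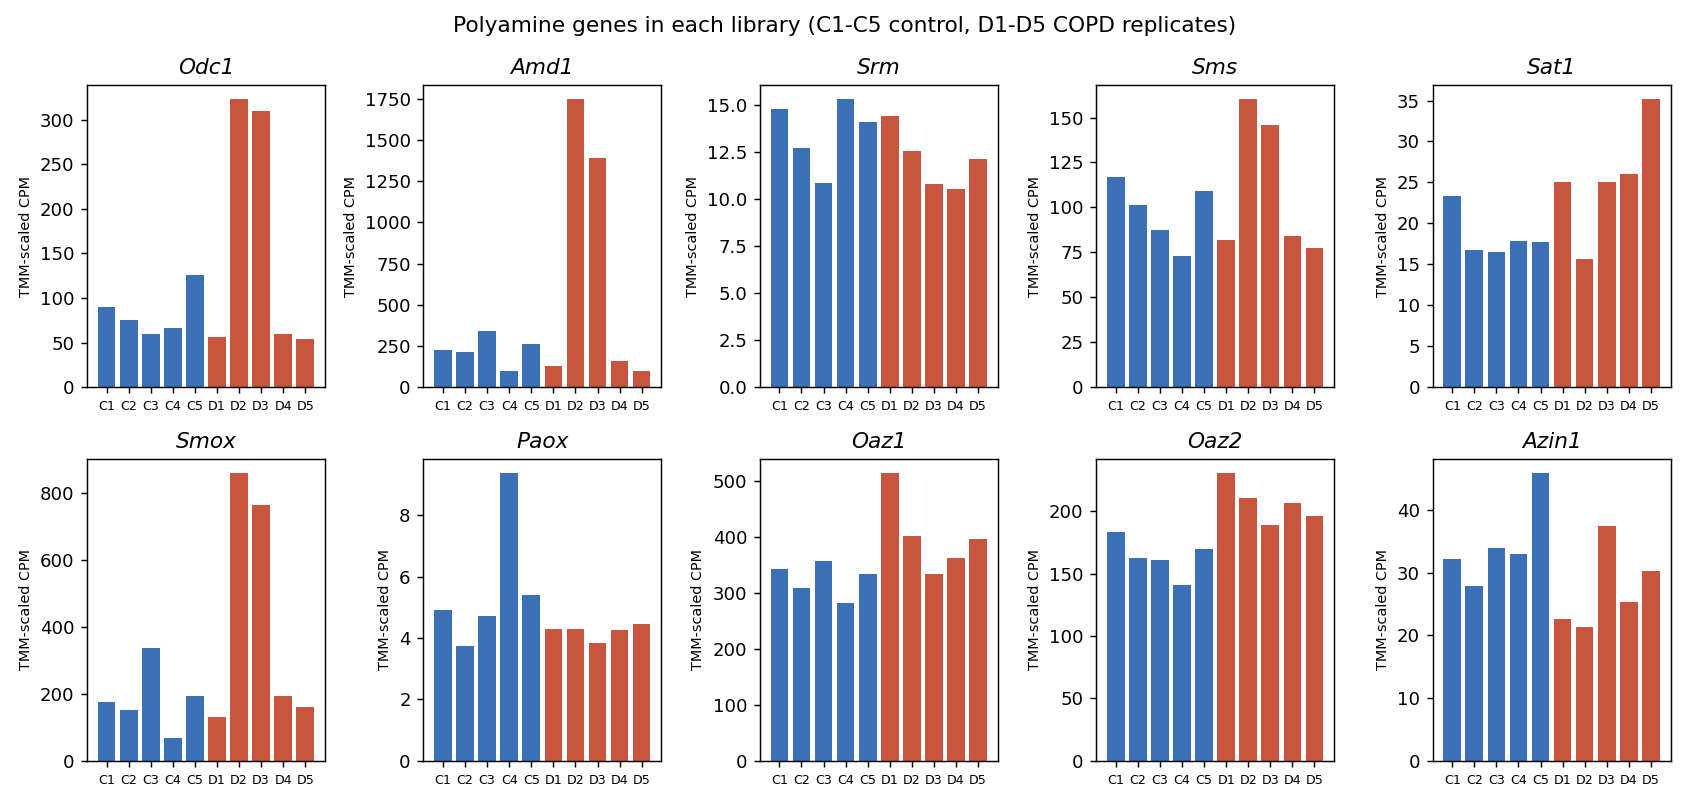
TMM-scaled CPM of each of the 10 genes (1 panel a gene, y axis from 0) in control replicates 1 to 5 (C1-C5, blue bars) and COPD replicates 1 to 5 (D1-D5, red bars). D2 and D3 are the highest bars for Odc1, Amd1, Sms and Smox, while Srm, Paox, Oaz1, Oaz2, Azin1 and Sat1 show no such pair.

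On the side of breakdown, the transcript for the oxidase that acts on spermine itself followed the same libraries. Smox was at 177, 151, 336, 67.5 and 194 CPM in control and at 130.5, 859, 763, 195 and 159.6 CPM in COPD. COPD replicates 2 and 3 were the highest, control replicate 3 came next, and the remaining COPD libraries lay inside the control range. The means were 185 ± 97.2 and 421 ± 358 CPM (SD, n = 5 each; log2 fold change 1.19 ± 0.56, SE). Sat1, which acetylates spermidine and spermine, was at 23.4, 16.7, 16.5, 17.9 and 17.7 CPM in control and at 25.1, 15.7, 25.0, 25.98 and 35.1 CPM in COPD. 4 COPD libraries lay above every control in CPM, and COPD replicate 2, where Odc1, Amd1 and Smox were highest, had the lowest Sat1 of all 10 libraries (log2 fold change 0.46 ± 0.18, SE). In TPM only COPD replicates 1 and 5, at 25.86 and 34.71, lay above every control (18.14 to 25.82). The log2 fold change of Sat1 was 0.16 ± 0.18 (SE) with limma on log2(TPM + 1). The highest Sat1 CPM was in COPD replicates 5, 4 and 1, which held almost no Y-linked transcripts, with COPD replicate 3 barely under replicate 1. Over the libraries with Y-linked counts alone the log2 fold change of Sat1 was 0.15 ± 0.20 (SE). Paox, the oxidase for the acetylated forms, had few counts (52 to 169 a library). It was at 3.73 to 9.37 CPM in control, with the top value in replicate 4, and at 3.82 to 4.47 CPM in COPD (log2 fold change -0.41 ± 0.22, SE). Its exons overlap those of Echs1 on the opposite strand in GENCODE M21, and no source used here says whether counting used strand, so its values are uncertain to that extent.

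The regulators of ornithine decarboxylase varied far less than its own transcript. Oaz1 was at 344, 309, 358, 283 and 335 CPM in control and at 515, 402, 333, 363 and 397 CPM in COPD (log2 fold change 0.30 ± 0.13, SE). The groups overlapped through COPD replicate 3, and COPD replicate 1 was the highest. Oaz2 was at 183, 163, 160.5, 141 and 170.0 CPM in control and at 230.5, 210.1, 189, 206 and 196 CPM in COPD (log2 fold change 0.34 ± 0.10, SE). It alone of the 10 genes had groups that did not overlap in CPM, as did 2.84% of all genes tested (1.29% with COPD higher). In TPM, where 0 of the 10 and 5.6% of all genes had groups apart, the Oaz2 groups did overlap, at 139 to 182 in control and 162 to 183 in COPD, and its log2 fold change there was 0.13 where the median of all genes was -0.18. Azin1 was at 32.1, 27.9, 33.8, 32.9 and 45.9 CPM in control and at 22.7, 21.3, 37.4, 25.2 and 30.3 CPM in COPD (log2 fold change -0.33 ± 0.17, SE). 3 COPD libraries lay under every control, replicate 2 lowest, while COPD replicates 3 and 5 lay inside the control range, so COPD replicates 2 and 3 parted for this gene.

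Levels of different genes were compared per transcript length, in TPM. In control the order was Oaz1 (555 ± 45.1), Smox (165 ± 73.5), Oaz2 (159.8 ± 19.5), Amd1 (125 ± 43.4), Odc1 (59.0 ± 21.3) and Sms (49.0 ± 10.6), then Sat1 (21.3 ± 2.84), Srm (18.7 ± 3.35), Azin1 (14.5 ± 3.28) and Paox (7.17 ± 2.98; SD, n = 5). Oaz1 stood above all others in every control, and every control value of Sms lay above every one of Sat1. The other neighbours in that order had ranges that overlapped. In COPD replicates 2 and 3 Amd1 was at 797 and 680.5 TPM and Smox at 644 and 615 TPM, above Oaz1 at 564 and 502 TPM. In COPD replicates 1, 4 and 5 the TPM of Amd1 was 57.0, 81.5 and 49.7 and that of Oaz1 was 709.9, 564 and 622. Oaz1 thus led the 10 genes in 8 libraries and Amd1 in the other pair.

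**Figure D2:**
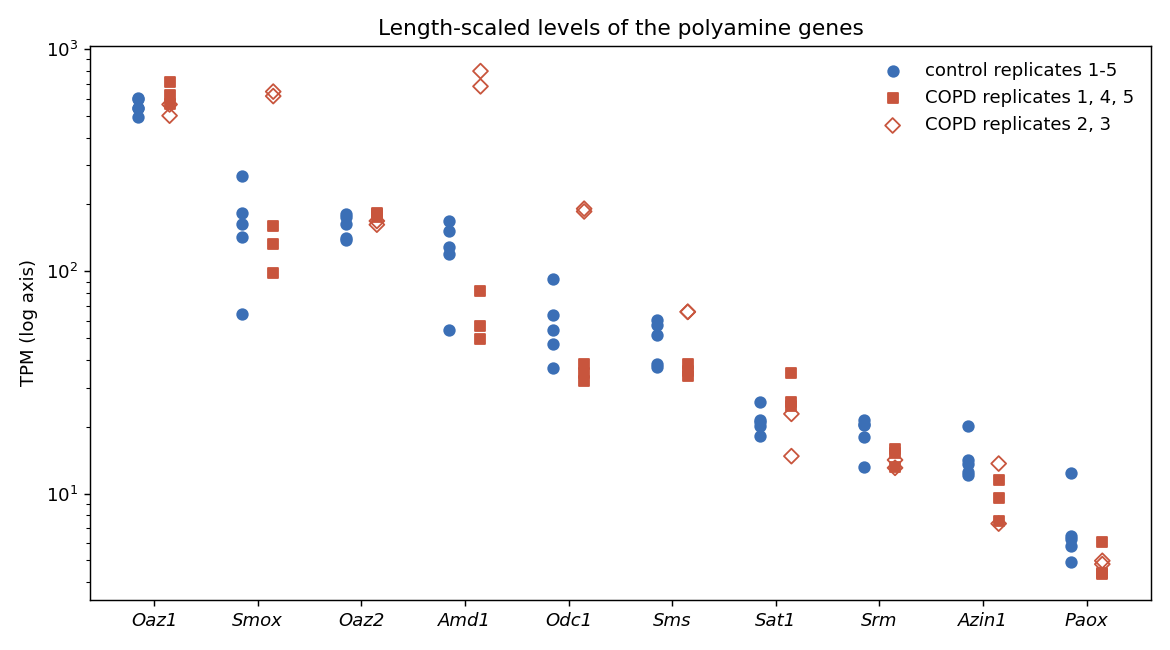
TPM of the 10 genes on a log axis, ordered by their mean in control, with 1 point a library (blue circles control, red squares COPD replicates 1, 4 and 5, open diamonds COPD replicates 2 and 3). The diamonds of Smox, Amd1 and Odc1 lie above every other point of the same gene, and those of Amd1 (797 and 680.5) lie above Oaz1 in the same libraries.

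Ratios of genes within a library do not depend on how libraries are scaled. The ratio of Odc1 to Oaz1 in TPM lay between 0.0680 and 0.154 in control and was 0.0451, 0.330, 0.381, 0.0679 and 0.0563 in COPD replicates 1 to 5. The ratio of Amd1 to Oaz1 lay between 0.111 and 0.310 in control and was 0.0803, 1.41, 1.36, 0.144 and 0.0799 in COPD. In COPD replicates 1 and 5 both ratios lay under the control range, and in replicates 2 and 3 both lay above it. Smox exceeded Sat1 by 3.09 to 14.8 times in control, by 43.7 and 26.9 times in COPD replicates 2 and 3, and by 3.79, 6.45 and 3.81 times in COPD replicates 1, 4 and 5. Smox exceeded Paox by 129 and 128 times in COPD replicates 2 and 3 and by 5.20 to 46.0 times in control.

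COPD replicates 2 and 3 also differ from the other COPD libraries in transcripts of the Y chromosome. Ddx3y, Eif2s3y and Kdm5d summed to 81.3 to 109 CPM in the controls, to 82.7 and 92.5 CPM in COPD replicates 2 and 3, and to 0.295, 0.204 and 0.184 CPM in COPD replicates 1, 4 and 5. The 5 controls carried as much of these transcripts and had Odc1, Amd1 and Smox under the levels of COPD replicates 2 and 3 in every case. Within COPD, the high levels of these genes and the Y-linked transcripts fell in the same libraries and cannot be told apart. The part of Y-linked status in these levels was not tested. Over the libraries with Y-linked counts alone, 5 control and 2 COPD, the log2 fold changes were 1.94 ± 0.24 for Odc1, 2.80 ± 0.34 for Amd1, 2.15 ± 0.42 for Smox and 0.66 ± 0.17 for Sms (SE). Without COPD replicates 2 and 3, a setting added after the data were seen, they were -0.54 ± 0.22, -0.81 ± 0.33, -0.19 ± 0.38 and -0.26 ± 0.16 (SE). In that setting every control carried Y-linked transcripts and every COPD library had almost none, so group and Y-linked status cannot be told apart. Over all 10 libraries too, those with almost none were all COPD. That setting leaves out the 2 highest values of each of these 4 genes, which lowers the fold change by construction. The change of sign therefore only describes that pair of libraries. Summed markers of macrophages (8 genes) were lowest in COPD replicates 2 and 3, at 34.2 and 43.5 CPM against 62.9 to 123 CPM elsewhere. Those of slow fibres (6 genes) were lowest there too, at 86.1 and 90.2 CPM against 122 to 871 CPM, and no marker of either list was at 0 throughout. Not every gene followed its sum. In COPD replicate 3 the slow-fibre gene Myl2 (36.6 CPM) and the macrophage gene Cd68 (3.16 CPM) lay above COPD replicate 4 (17.7 and 2.51 CPM). Fast-fibre markers (6 genes), at 191891 and 176986 CPM, lay inside the range of the other libraries (102708 to 201441 CPM), whose lowest value was that of control replicate 4. The part of these markers in the polyamine values was not tested. In whole muscle, fewer cells of a type and less RNA per cell cannot be told apart.

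**Figure D3:**
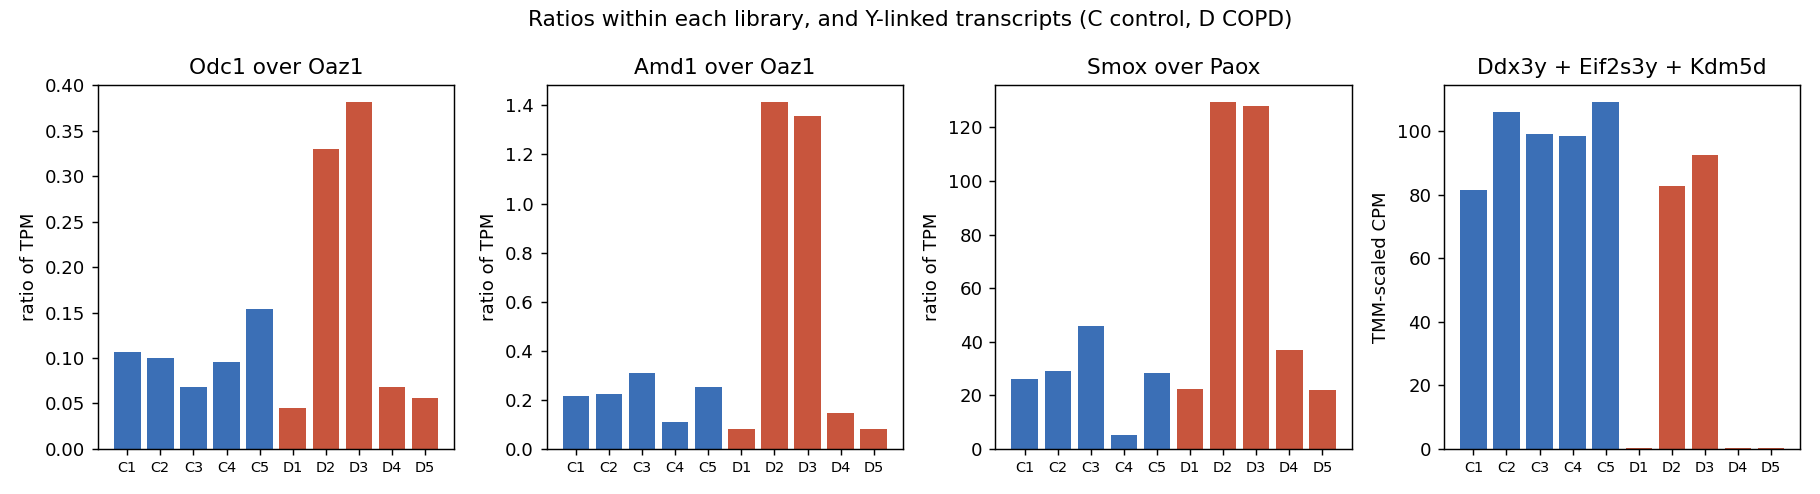
Ratios of TPM within each library for Odc1 over Oaz1, Amd1 over Oaz1 and Smox over Paox, and the CPM of Ddx3y, Eif2s3y and Kdm5d on the Y chromosome, summed, as bars from 0 for control replicates 1 to 5 (C1-C5, blue) and COPD replicates 1 to 5 (D1-D5, red). D2 and D3 have the highest ratios. D1, D4 and D5 have almost no Y-linked transcripts, while C1 to C5 have them at 81.3 to 109 CPM.

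How rare such a pattern was can be read over all genes. COPD replicates 2 and 3 both exceeded the other 8 libraries for 5.78% of the 12697 genes tested and for 4 of the 10 polyamine genes. Both lay below the other 8 for 6.12% of genes and for 0 of the 10. The lower of the pair was more than 2 times the highest of the other 8 for 28 genes, 0.221% of those tested, and Amd1 (4.07 times), Odc1 (2.47 times) and Smox (2.27 times) were 3 of them. Ordered by this ratio, Amd1 was number 5, Odc1 number 15, Smox number 21 and Sms (1.25 times) number 154. The pattern of these libraries was among the values that chose the genes, so these ranks only describe it.

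COPD and control as groups were compared by edgeR's quasi-likelihood test over all genes. It called 8 genes (0.063% of those tested) at an adjusted p under 0.05, and 0 of the 10 polyamine genes were among them. DESeq2, run without the low-count filter, called 1, Oaz2, beside 2.31% of the 17925 genes with any count. 0 of the 10 were called by voom with sample weights (1.08% of all genes), by limma on log2(TPM + 1) (0.599%), without COPD replicate 5 (3.21%) and without COPD replicates 2 and 3 (0.054%). In the 7 libraries holding Y-linked counts 3 of the 10 were called (Odc1, Amd1 and Smox), beside 3.7% of all genes. At an unadjusted p under 0.05 edgeR listed 14.6% of all genes and 3 of the 10 (Sat1, Oaz1 and Oaz2), each with a higher mean in COPD, a direction in which 7.94% of all genes were listed. Of the 10 log2 fold changes 7 were above 0, with a median of 0.32, beside 48.0% of all genes and a median of -0.01. The direction of that listing turned with the scaling: with library size alone, where the median of all genes was -0.17, 0 of the 10 were listed as higher and 3 as lower, and with limma on log2(TPM + 1) 0 as higher and 2 as lower. Sat1, Oaz1 and Oaz2 were thus no longer listed, at log2 fold changes of 0.31, 0.15 and 0.18 with library size alone. Because the genes were chosen with this contrast known, nothing is read from these counts.

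**Figure D4:**
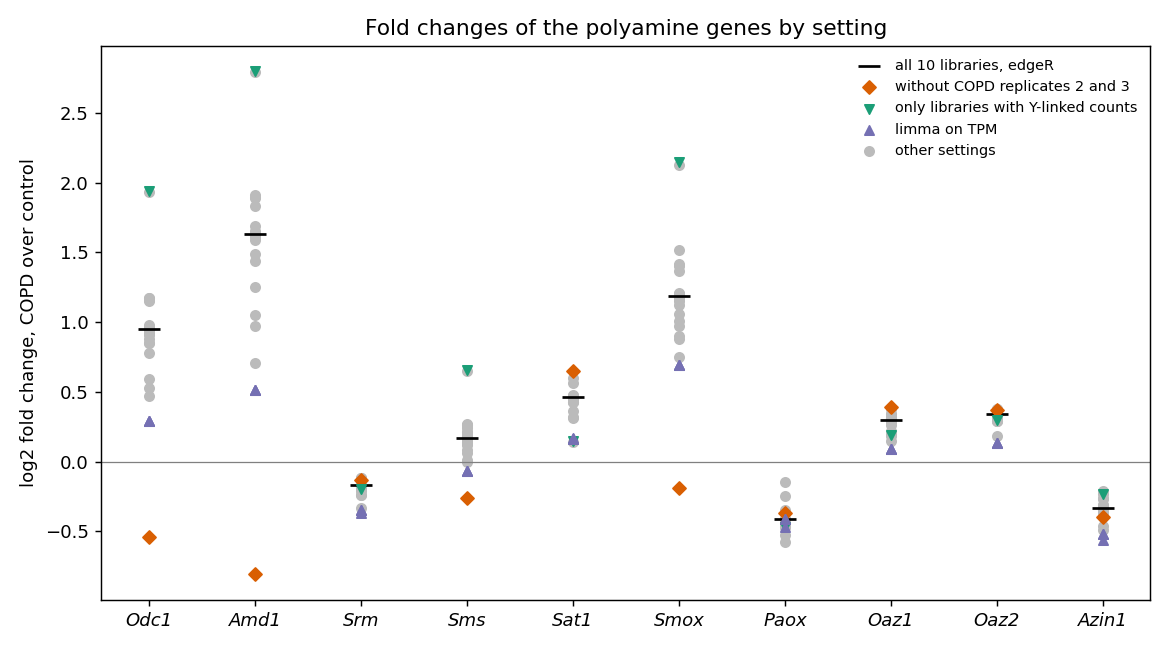
Log2 fold change of COPD over control for each gene under each setting: all 10 libraries with edgeR (black bars), limma on TPM (purple triangles), only libraries with Y-linked counts (green triangles), without COPD replicates 2 and 3 (orange diamonds) and the remaining settings (grey). For Odc1, Amd1, Smox and Sms the diamonds lie under 0 and the green triangles well above it, while Srm, Paox and Azin1 lie under 0 and Sat1, Oaz1 and Oaz2 above 0 in every setting.

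Of 44 further genes that supply, carry, use or regulate polyamines, 34 were tested and 0 passed edgeR's threshold over all genes (0.063% of all genes did). DESeq2, run without that low-count filter, fitted 43 of them and called 4 (Gnmt, Max, Arntl and Clock), beside 2.31% of the 17925 genes with any count. Their log2 fold changes lay above 0 for 16 and below 0 for 18, with a median of -0.01, the same as over all genes. At an unadjusted p under 0.05 edgeR listed 10 of the 34, 4 higher and 6 lower in COPD, beside 14.6% of all genes. In the supply of ornithine, 1 of 5 tested genes was among them: Oat, the mitochondrial ornithine aminotransferase, had a mean of 201 ± 41.5 CPM over the controls against 151 ± 24.6 CPM in COPD (SD, n = 5 each; log2 fold change -0.41 ± 0.16, edgeR adjusted p = 0.263). Oat was lowest in COPD replicate 3 (120.3 CPM), and COPD replicate 2 came next at 141.9 CPM, barely under COPD replicate 1 at 142.2 CPM. The nitric oxide synthase gene Nos1, which uses arginine, had means of 134 ± 45.9 CPM in control and 133 ± 38.5 CPM in COPD. Arginase transcripts (Arg1 and Arg2) lay at or under 0.282 CPM in every library and did not pass the filter.

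Of 10 tested genes of the methionine cycle and salvage, which feed Amd1 and recycle its product, 1 had an unadjusted p under 0.05, beside 14.6% of all genes. Gnmt, which uses up S-adenosylmethionine, had a mean of 4.94 ± 2.90 CPM over the controls against 1.19 ± 0.669 CPM in COPD (SD, n = 5 each; log2 fold change -2.03 ± 0.46, edgeR adjusted p = 0.0963). Its groups overlapped through control replicate 1, at 1.86 CPM. Mat2a, which makes S-adenosylmethionine, had means of 167 ± 33.8 and 215 ± 44.6 CPM (edgeR adjusted p = 0.366, log2 fold change 0.36 ± 0.18). Its 2 highest values were those of COPD replicates 2 and 3, at 263 and 239.6 CPM, with COPD replicate 5 at 227 CPM. The salvage dioxygenase gene Adi1 reached 117 and 110.2 CPM in COPD replicates 2 and 3, with the other 8 libraries between 41.1 and 83.7 CPM (log2 fold change over all 10 of 0.43 ± 0.22, adjusted p = 0.403). In the 7 libraries that held Y-linked counts Adi1 had a log2 fold change of 0.87 ± 0.12 (edgeR adjusted p = 0.00612), in a fit that called 3.7% of all genes and whose COPD side was COPD replicates 2 and 3 alone.

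Among the enzymes and target of the hypusine modification, for which spermidine is the donor, Eif5a had means of 452 ± 26.04 CPM in control and 508 ± 53.95 CPM in COPD (SD, n = 5 each), and Dohh of 48.6 ± 3.85 and 53.3 ± 5.55 CPM. Neither passed edgeR's threshold (adjusted p = 0.481 and 0.589). Only Eif5a2 of these 4 genes had an unadjusted p under 0.05, beside 14.6% of all genes. Its log2 fold change was -0.84 ± 0.32 (edgeR adjusted p = 0.267), with low means of 1.34 and 0.740 CPM. Among 7 tested carriers, 4 had one, beside 14.6% of all genes. Atp13a2, a lysosomal polyamine exporter, had a log2 fold change of -0.39 ± 0.13 (adjusted p = 0.210) and Slc18b1, a vesicular one, of -0.35 ± 0.15 (adjusted p = 0.296). The cationic amino acid transporters Slc7a2 and Slc7a1, which import arginine, lay in opposite directions, at -0.66 ± 0.27 (adjusted p = 0.289) and 0.62 ± 0.26 (adjusted p = 0.296). Slc7a2 was at 28.6 to 34.9 CPM in COPD replicates 1 to 4, under every control (37.3 to 78.9 CPM), and at 71.1 CPM in COPD replicate 5. Without that library it passed (-0.98 ± 0.19, edgeR adjusted p = 0.0261), in a fit that called 3.21% of all genes. That fit leaves out the highest COPD value of Slc7a2, which lowers its fold change by construction.

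Of 5 tested genes known to regulate the pathway, 3 had an unadjusted p under 0.05, beside 14.6% of all genes. Clock and its partner Arntl, of the circadian activator that acts on E-boxes, were at 14.7 ± 2.07 and 21.9 ± 2.07 CPM and at 8.87 ± 5.02 and 25.7 ± 8.04 CPM (SD, n = 5 each; edgeR adjusted p = 0.0795 and 0.104). Max, the partner of Myc, was at 29.8 ± 4.00 and 42.6 ± 6.65 CPM (adjusted p = 0.107). Myc, an activator of Odc1, was lowest in COPD replicate 3 at 5.44 CPM, and COPD replicate 2, at 7.17 CPM, lay inside the range of the other 8 libraries (6.60 to 13.5 CPM).

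Candidates for a pattern like that of Odc1, Amd1, Smox or Sat1 were 9029 genes with a mean of at least 5 CPM. The 10 polyamine genes and predicted or clone-named genes were left out of them. Likeness was the root mean square difference of log2 CPM over the 10 libraries, each gene centred on its own mean. The genes named here were among the 4 most like each. For Odc1 they included Hipk2, Shc2 and Cdk19 (differences of 0.39 to 0.41, against a median of 0.95 over all candidates). Hipk2, a nuclear kinase, reached 131 and 153 CPM in COPD replicates 2 and 3, with every other library between 38.1 and 68.6 CPM. For Amd1 they were Slc30a2, Tfcp2l1, C7 and Cdk19 (0.49 to 0.68, median 1.4). Slc30a2, a zinc transporter, was at 31.1 and 34.6 CPM in that pair and at 1.99 to 9.99 CPM elsewhere. For Smox they included Cpeb1, Prkcd and Slc38a4 (0.44 to 0.53, median 1.10). Cpeb1, which binds messenger RNA and regulates its polyadenylation, reached 252 and 212 CPM in the pair, with every other library between 34.1 and 85.8 CPM and control replicate 4 lowest, as for Smox. For Sat1 they were Emp1, Kdm5c, Spred1 and Tns3 (0.14 to 0.21, median 0.43). Kdm5c, an X-linked demethylase gene, was highest in the COPD libraries with almost no Y-linked transcripts. Its level there was 34.9 (replicate 1), 47.4 (replicate 4) and 55.0 CPM (replicate 5), with every other library between 26.01 and 31.7 CPM. The part of Y-linked status in the Kdm5c level was not tested. Among the 10 themselves, Oaz1 and Oaz2 were the closest pair (0.11), Amd1 was closest to Smox (0.50) and Odc1 to Sms (0.60).

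**Figure D5:**
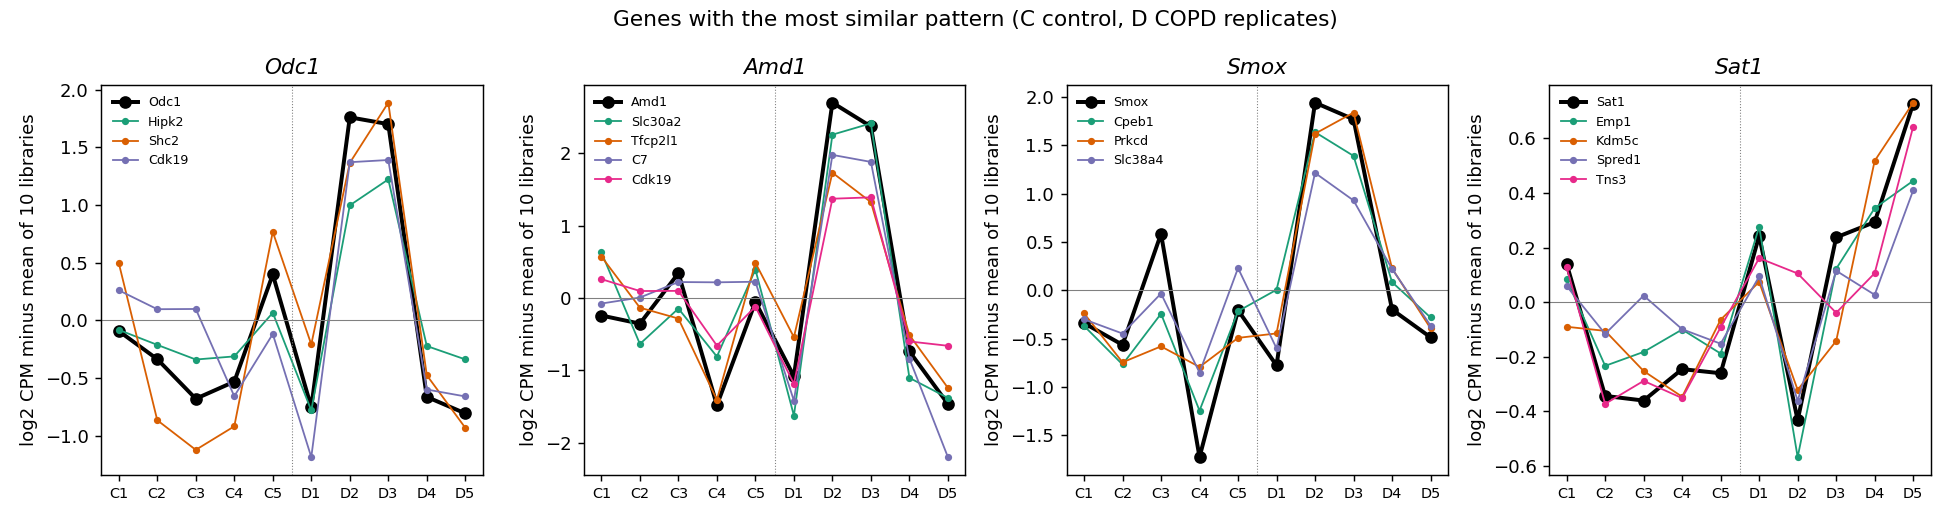
Log2 CPM less its mean over the 10 libraries for Odc1, Amd1, Smox and Sat1 (black) and the genes named as most like each (3 or 4, colours), against control replicates 1 to 5 (C1-C5) and COPD replicates 1 to 5 (D1-D5), split by a dotted line. D2 and D3 are the peak of the first 3 panels, while Sat1 is lowest in D2 and highest in D5.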

How the data were processed

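Messenger RNA of gastrocnemius was sequenced from 5 control and 5 COPD libraries; group and replicate number came from the sample titles. Libraries came from poly(A) RNA captured on oligo(dT), per the labels' protocols. The authors deposited expected counts per gene, estimates that need not be whole (30.7% of the values were not), and TPM for the same genes. RSEM 1.2.12, Bowtie2 2.2.5, HISAT2 2.0.4, DESeq2 1.4.5 and the build mm9 are listed, with no role or order, per the submitters' processing notes. The strand setting of the counting is not stated in the labels or headers. Sequences came from RefSeq (GRCm38.p6) by symbol, and exon overlaps and the Amd2 alignment (Biopython 1.88) from GENCODE M21, another build than mm9.

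Expected counts were rounded, filtered with filterByExpr, scaled by TMM and tested with edgeR 4.0.16 (glmQLFit, glmQLFTest; Benjamini-Hochberg over 12697 genes, threshold 0.05) in R 4.3.3, after a run on simulated data. The standard error is the log2 fold change divided by the square root of F. Library totals were 14085854 to 17251034 counts, and TMM factors 0.963 to 1.14 in control and 0.915 to 0.967 in COPD. Chi-square over degrees of freedom was 18.1 to 124 over all pairs of libraries, so no library was a copy of another. The lowest value was that of COPD replicates 2 and 3, the most alike pair, and the next was 23.0 for control replicates 1 and 5. The labels do not say whether COPD replicates 2 and 3 came from separate animals. Alternatives were DESeq2 1.42.0, limma 3.58.1 on log2(TPM + 1) and log2(TPM + 0.1) for genes with a mean of at least 1 TPM and without that filter, voom, other scalings and filters, a replicate block, a term or selection for Y-linked counts (at least 1 CPM), and leaving out libraries. Figures used matplotlib 3.10.9.

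The members, the wider list and the rules were chosen with earlier results of these data known. The naming rule took all 10 members, genes of the wider list with an unadjusted p under 0.05 or a high level, and the 4 genes most like Odc1, Amd1, Smox and Sat1; Myc, Arg1, Arg2 and Mtr were named after their values were seen, and some genes the rule took are not reported here. Of the other marker lists checked, summed CPM in control and COPD was 3.79 to 327 and 0.444 to 78.2 for neutrophils, 30.1 to 689.96 and 96.4 to 1031 for red cells, 167 to 269 and 182 to 308 for adipocytes, 34.0 to 88.2 and 72.8 to 211 for tendon, 203 to 329.7 and 202 to 324 for endothelium and 348 to 483 and 298 to 602.5 for fibro-adipogenic cells.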

Additional observations from a re-analysis of the deposited data

Results flagged for a closer look

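Sat1 in control replicate 1, at 23.4 CPM, lay apart from the other 4 controls (16.5 to 17.9 CPM). The gap was 0.800 of the group's range, above Dixon's 95% critical value of 0.71 for 5 samples. It was 1 of 20 sets of 5 values examined, and chance marks about 1 in 20. The high Odc1, Amd1 and Smox values of COPD replicates 2 and 3 could not be marked in this way, because 2 libraries shared them.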

How the results depend on the processing

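The count of 8 genes past the threshold over all genes became 414 with DESeq2, 137 with voom and sample weights, 17 without the low-count filter, 67 and 65 with limma on log2(TPM + 1) and log2(TPM + 0.1), and 2 without a TPM filter. It became 216 with a term for Y-linked counts and 488 over the libraries that had them. The split into higher and lower was 7 and 1 by edgeR, 7 and 3 with upper-quartile scaling, 2 and 4 with library size alone and 9 and 58 with limma on log2(TPM + 1). Leaving out 1 library gave 0 to 410 genes: 410 without COPD replicate 5, 0 without COPD replicate 2 (1510 at an unadjusted p under 0.05), 5 without COPD replicate 4, and 3, 3, 1, 1 and 2 without control replicates 1 to 5. Of the 10 polyamine genes, 0 were called when any 1 library was left out and 0 without COPD replicates 2 and 3. DESeq2 called 1 (Oaz2), and 3 (Odc1, Amd1 and Smox) were called with a term for Y-linked counts and 3 over the libraries that had them, fits in which COPD replicates 2 and 3 alone set the COPD level. Of the wider list, 4 were called by DESeq2, 2 by voom (Arntl and Clock), 2 over libraries with Y-linked counts (Adi1 and Slc22a3) and 0 to 6 with 1 library left out, the 6 without COPD replicate 5. The cause of these changes was not tested. Over 23 alternatives the log2 fold changes of Srm, Sat1, Paox, Oaz1, Oaz2 and Azin1 kept their sign. Those of Odc1 (-0.54 to 1.94), Amd1 (-0.81 to 2.80) and Smox (-0.19 to 2.15) changed it only without COPD replicates 2 and 3. That of Sms (-0.26 to 0.66) changed it there and in the limma fits on TPM, and was 0.00 without COPD replicate 2. Paox went from -0.41 to -0.15 without control replicate 4. Without COPD replicate 2, Odc1 went from 0.95 to 0.53, Amd1 from 1.63 to 0.97, Smox from 1.19 to 0.75 and Sms from 0.17 to 0.00; without COPD replicate 3, Odc1 went to 0.59 and Sms to 0.06.

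No pairing by replicate number was seen in the levels: same-numbered libraries had correlated deviations of -0.14 to 0.04, and none matched its own number best. A pairing in the design that left no trace in the levels cannot be seen in this way. With a replicate block 7 genes were called over all genes and 0 polyamine genes, and the log2 fold changes of Odc1 and Amd1 were 0.47 and 0.71.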

Other observations

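Among the 34 tested genes of the wider list, COPD replicates 2 and 3 were both above the other 8 libraries for 5 (Mat2a, Mtr, Adi1, Amd2 and Arntl) and both below for 1 (Oat), beside 5.78% and 6.12% of all genes. Mtr, the methionine synthase gene that remakes methionine from homocysteine, was at 21.2 and 26.6 CPM in that pair and at 9.30 to 18.9 CPM elsewhere. Slc22a3, an organic cation transporter, did not pass the low-count filter over all 10 libraries. It was at 2.14 and 2.57 CPM in the pair and at 0 to 0.796 CPM in the other 8 libraries, and it was chosen after its values were seen.

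Control replicate 4 had the lowest Amd1, Smox, Sms, Oaz1 and Oaz2 of the 5 controls and the highest Srm and Paox. Its summed fast-fibre markers were also the lowest of the 10 libraries.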
